A study of Mus musculus with 2 samples.

Results

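Bone morphogenetic protein (BMP) signaling was described through 9 genes in cells of mouse gonadal white adipose tissue (gWAT): the ligands Bmp4, Bmp7 and Gdf10, the receptors Bmpr1a and Bmpr2, the secreted antagonists Grem1 and Nbl1, and the target genes Id1 and Id3. They were chosen by name from the 31054 genes counted in both libraries, and all 9 had UMIs (unique molecular identifiers, 1 per captured RNA molecule). The cells were CD31- CD45- cells from male mice aged 18 months of the genotype p16-CreERT2/R26-LSL-tdTomato, in which tamoxifen makes cells that express p16 switch on the red reporter tdTomato permanently. They were sorted into Tom+ and Tom- cells, and each sort gave 1 droplet library. The reporter therefore marks p16 expression around the time of tamoxifen rather than at collection, and both sorted groups carry the alleles and the treatment. How many mice went into each library is not stated in the sources used here.

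BMPs are secreted ligands of the TGF-β superfamily that bring type I receptors (such as BMPR1A) and type II receptors (such as BMPR2) together on the cell surface, after which SMAD1, SMAD5 and SMAD9 are phosphorylated and, with SMAD4, switch on target genes. The Id genes are among the most direct of these targets, and their proteins block basic helix-loop-helix transcription factors. Secreted antagonists such as gremlin 1 (Grem1), NBL1 (also called DAN) and noggin bind BMPs outside the cell, and in adipose tissue BMP4 and BMP7 are best known for committing progenitors to the adipocyte lineage and for promoting brown and beige adipocyte programs.

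The promoters of Bmp4 and Gdf10 are shown because the RNAs of these ligands divided the cell types in opposite directions, as given further on. Each line is the 250 bases upstream of the annotated start, 5′ to 3′ on the strand of the gene, from RefSeq on GRCm38.p6, and the capitals mark the letters GGAGCC or their reverse complement GGCTCC, a GC-rich element known to bind SMAD proteins. The Bmp4 window lies at chr14:46390670-46390919 on the minus strand, and the Gdf10 window at chr14:33923337-33923586 on the plus strand.
Bmp4: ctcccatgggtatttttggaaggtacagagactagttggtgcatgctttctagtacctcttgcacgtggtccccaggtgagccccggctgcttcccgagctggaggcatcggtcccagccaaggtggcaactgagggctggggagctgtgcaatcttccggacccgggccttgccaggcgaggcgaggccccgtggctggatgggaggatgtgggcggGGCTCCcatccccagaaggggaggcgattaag
Gdf10: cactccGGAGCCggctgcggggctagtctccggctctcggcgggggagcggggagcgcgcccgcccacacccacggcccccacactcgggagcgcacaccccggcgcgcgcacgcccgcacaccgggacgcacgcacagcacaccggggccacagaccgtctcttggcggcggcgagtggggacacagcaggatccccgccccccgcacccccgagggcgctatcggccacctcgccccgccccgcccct
The match in Bmp4 begins 32 bases before the start and that in Gdf10 244 bases before it. Windows were found for 7 of the 9 genes, all but Bmp7 and Id1. Searched on both strands, GGAGCC was in 3 of these 7 windows (Bmp4, Gdf10 and Id3) and in 26.0% of all 32851 windows of this length. The palindrome GGCGCC, another GC-rich SMAD element, was in 4 of 7 (Bmpr1a, Bmpr2, Grem1 and Nbl1) and in 9.59% of all windows, and the palindrome GTCTAGAC was in 0 of 7 and in 0.167% of all windows. A match describes the letters only, and binding was not measured. On GRCm38 in GENCODE M21, the genes themselves lie at chr14:46383520-46390669 (Bmp4), chr2:172868012-172940321 (Bmp7), chr14:33923587-33937983 (Gdf10), chr14:34410734-34503341 (Bmpr1a), chr1:59763400-59879014 (Bmpr2), chr2:113746164-113758646 (Grem1), chr4:139082284-139092993 (Nbl1), chr2:152736251-152737410 (Id1) and chr4:136143497-136145755 (Id3). Bmp4 and Bmpr1a overlap gene models on the other strand (Gm15217 and Gm15222, and Gm17110), and Bmpr2 overlaps Gm38125 on its own strand. A share of the Bmpr2 UMIs could therefore belong to Gm38125. For Bmp4 and Bmpr1a this could hold only if reads were counted without regard to strand.

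After the filter on genes and mitochondrial UMIs, 3524 Tom+ and 6717 Tom- cells remained. Cells with at least 10 UMIs over the mesothelial genes Msln, Upk3b, Krt19, Lrrn4 and Upk1b were taken as mesothelial (250 Tom+ and 1887 Tom- cells), and those with under 5 as stromal (3263 and 4800), which left 11 and 30 cells in between. The 8 further mesothelial markers summed to 3460 and 3617 CPM (UMIs per 1000000 of the cell group) in Tom+ and Tom- mesothelial cells and to 198 and 319 CPM in stromal cells. Most of the stromal sum was Wt1, at 170 and 263 CPM against 478 and 513 CPM in mesothelial cells, and Cdh1 was near 0 in both cell types (0 to 8 UMIs per group). The 7 stromal markers, led by collagens, Dcn and Lum, summed to 32575 and 32664 CPM in stromal cells and to 14662 and 16281 CPM in mesothelial cells. The sort was visible in tdTomato RNA, at 211 CPM in Tom+ against 13.1 CPM in Tom- stromal cells and at 780 against 8.25 CPM in mesothelial cells. At full depth, a tdTomato UMI was found in only 28.6% of Tom+ stromal cells and in 13.1% of Tom- stromal cells. In mesothelial cells these shares were 79.2% and 11.4%. RNA of other cell types was present despite the CD31- CD45- gate. The 7 immune markers summed to 60126 CPM in Tom+ cells and to 14619 CPM in Tom- stromal cells, most of it from the antibody gene Igkc (45478 and 10759 CPM), while Ptprc, which encodes CD45, was at 7.57 and 3.44 CPM. Igkc exceeded 50 UMIs in 152 Tom+ and 70 Tom- stromal cells, against medians of 7 and 2 UMIs per stromal cell. The stromal rule uses mesothelial genes only, so these Igkc-rich cells are part of the stromal values. The libraries also shared 2224 barcodes, carried by 404 Tom+ and 75 Tom- stromal cells and by 100 and 207 mesothelial cells, although only 9 of them passed the filter in both libraries. The ratios between libraries of the 7 genes above the filter on low values, those between cell types that were past the fold and the wider genes that moved by over 1.5 times are also given without these cells. The levels, shares and other values include them.

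With 1 library of each sort there is no replicate, so no test, p-value or error between animals is given, and Tom+ and Tom- cells cannot be told apart from their preparations. UMIs were summed over the cells of each group (51104409 and 57883866 in Tom+ and Tom- stromal cells, 5322983 and 32355904 in mesothelial cells), and 95% intervals, in parentheses, cover counting error only. Exact Poisson intervals are given for levels, and exact Clopper-Pearson intervals for ratios and shares. A ratio was called past the fold at an absolute log2 value of at least 0.5 between libraries and of at least 1 between cell types, of genes that averaged 5 CPM or more over the groups compared. Bmp7 and Grem1 were too low for this filter in all 4 comparisons, so 7 of the 9 genes entered the counts. UMIs were captured at the 3′ end and are not scaled by length, so that levels of different genes are not ranked against each other.

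Of the ligands among the 9 genes, Bmp4 marked the mesothelial cells. It was at 150 CPM (140 to 160) in Tom+ cells and at 169 CPM (165 to 174) in Tom- mesothelial cells, and at 13.8 CPM (12.8 to 14.8) and 20.8 CPM (19.6 to 22.0) in stromal cells. The levels therefore ran from Tom- mesothelial through Tom+ mesothelial and Tom- stromal to Tom+ stromal cells, with no overlap between neighboring intervals. The mesothelial level was 10.9-fold higher in the Tom+ library (log2 ratio 3.44, 3.30 to 3.59) and 8.15-fold higher in the Tom- library (log2 ratio 3.03, 2.94 to 3.12). With each cell thinned to 7500 UMIs, which evens out depth and left out 265 and 636 stromal and 3 and 98 mesothelial cells, Bmp4 was found in 57.1% of Tom+ mesothelial cells (50.7 to 63.3) and in 9.01% of Tom+ stromal cells (8.0 to 10.1). In Tom- cells these shares were 60.3% (58.0 to 62.6) and 12% (11.0 to 13.0). Before thinning they were 76.8% and 14.1% in Tom+ and 78.2% and 16.8% in Tom- cells, at medians of 18601.5 and 14235 UMIs per cell in Tom+ and 14753 and 11270 in Tom- cells. For comparison with a gene that stromal cells should lack, the mesothelial gene Muc16, found in 76.9% and 70.4% of mesothelial cells when thinned, was found in 0.200% of Tom+ and 0.889% of Tom- stromal cells. As a level, stromal Bmp4 was 9.19% and 12.3% of the mesothelial one. For the mesothelial markers Muc16, Bnc1, Krt8, Krt18, Gpm6a and Nkain4 this measure ran from 0.110% to 2.13% in the Tom+ library. In the Tom- library it ran from 0.551% to 3.75%. Stromal Wt1 lay above these ranges, at 170 and 263 CPM against 478 and 513 CPM in mesothelial cells.

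Gdf10, which encodes the BMP3-related ligand also called BMP3B, showed the opposite split. It was at 193 CPM (189 to 196) in Tom+ cells and at 272 CPM (268 to 276) in Tom- stromal cells, and 6.39 CPM (4.42 to 8.93, from 34 UMIs) and 21 CPM (19.4 to 22.6) in mesothelial cells. The mesothelial level was thus 30.2-fold lower in the Tom+ and 13.0-fold lower in the Tom- library, with log2 ratios of -4.91 (-5.45 to -4.43) and -3.70 (-3.81 to -3.59). Thinned, 54.9% of Tom+ and 60.6% of Tom- stromal cells held a Gdf10 UMI, against 2.83% (1.15 to 5.75) and 6.48% (5.39 to 7.73) of mesothelial cells, and before thinning the shares were 65.4%, 66.8%, 7.60% and 11.6%. In mesothelial cells Gdf10 came to 3.32% of the stromal level in the Tom+ and 7.72% in the Tom- library. Lum, Pdgfra, Pdgfrb, Pparg, Fabp4, Lpl and Pi16 came to 3.87% to 15.9% in the Tom+ and 6.08% to 18.2% in the Tom- library. The listed collagen genes and Dcn were relatively higher. Dcn was at 9987 and 11318 CPM in Tom+ and Tom- mesothelial cells against 18504 and 22290 CPM in stromal cells. The part of stromal RNA carried into mesothelial droplets was not tested.

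Bmp7, the third ligand, was low in both cell types. It stood at 3.68 CPM (3.17 to 4.24) in Tom+ cells and at 5.10 CPM (4.53 to 5.71) in Tom- stromal cells, and at 5.26 CPM (3.50 to 7.60, from 28 UMIs) and 3.49 CPM (2.88 to 4.20) in mesothelial cells. The mesothelial over stromal log2 ratio was 0.52 for Tom+ and -0.55 for Tom- cells, so it took no common direction. Thinned, 2.17% and 3.10% of stromal and 3.64% and 2.35% of mesothelial cells held a Bmp7 UMI, against 3.56%, 4.38%, 9.20% and 5.35% before thinning.

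**Figure D1:**
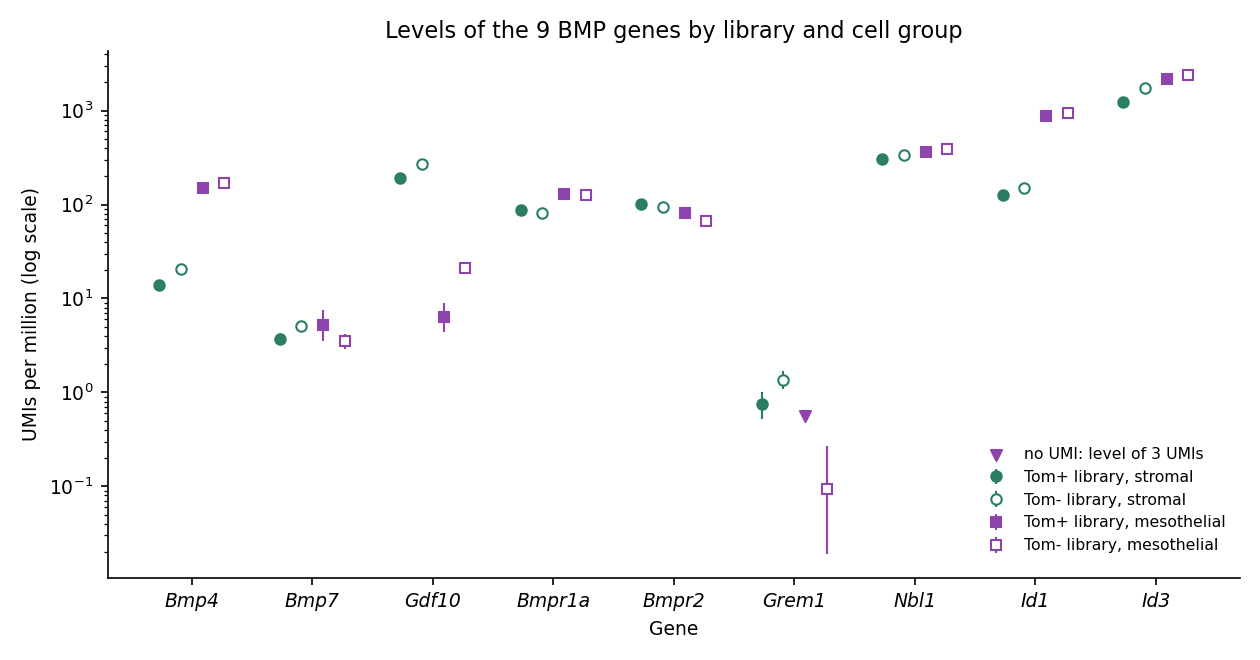
Level of each of the 9 genes in Tom+ and Tom- stromal and mesothelial cells, in CPM on a log axis, from 1 library per sort. Bars on the points are exact Poisson 95% intervals for counting error. Bmp4 and Id1 sit higher in mesothelial cells, Gdf10 sits lower, and Grem1 had 0 UMIs in Tom+ mesothelial cells.

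The receptors were present in both cell types. Bmpr1a, the type I receptor through which BMP4 signals, was at 87.4 CPM (84.8 to 90.0) in Tom+ cells and at 80.9 CPM (78.6 to 83.3) in Tom- stromal cells, and at 129 CPM (119 to 139) and 126 CPM (122 to 130) in mesothelial cells. The mesothelial intervals overlapped each other and lay above the stromal ones, with mesothelial over stromal log2 ratios of 0.56 in the Tom+ and 0.64 in the Tom- library. Bmpr2, the type II receptor, was ordered the other way, at 101 CPM (98.2 to 104) in Tom+ cells and at 93.6 CPM (91.2 to 96.2) in Tom- stromal cells against 82.3 CPM (74.8 to 90.4) and 66.9 CPM (64.1 to 69.8) in mesothelial cells. Its mesothelial over stromal log2 ratios were -0.29 and -0.48, and none of these receptor ratios passed the fold. A Bmpr1a UMI was found, thinned, in 47.4% and 44.8% of stromal and 62.3% and 59.0% of mesothelial cells (68.3%, 57.9%, 85.2% and 79.7% before thinning), and a Bmpr2 UMI in 54.5%, 48.1%, 43.7% and 37.5% (72.1%, 61.2%, 80.8% and 59.9% before thinning).

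Of the antagonists, Nbl1 was widespread and Grem1 was close to absent. Nbl1 was at 309 CPM (305 to 314) in Tom+ cells and at 340 CPM (335 to 344) in Tom- stromal cells and at 367 CPM (351 to 384) and 394 CPM (387 to 401) in mesothelial cells, with log2 ratios between the cell types of 0.25 and 0.22 and no overlap among the 4 intervals. Thinned, 83.2% to 92.1% of cells in the 4 groups held an Nbl1 UMI, and 89.2% to 98.8% before thinning. Grem1 gave 38 UMIs in Tom+ stromal cells, or 0.744 CPM (0.526 to 1.02), and 79 UMIs in Tom- stromal cells, or 1.36 CPM (1.08 to 1.70). In mesothelial cells it gave 0 UMIs in the Tom+ and 3 in the Tom- library. The Tom+ stromal point value was 1.32-fold above the mesothelial floor of 3 UMIs, 0.564 CPM. Its interval, 0.526 to 1.02 CPM, reaches below that floor, so a lower mesothelial level was not resolved in the Tom+ library. Thinned, 9 of 2998 Tom+ stromal cells (0.300%) and 14 of 4164 Tom- stromal cells (0.336%) held a Grem1 UMI, against 0 of 247 Tom+ mesothelial cells, where 0 allows a share of cells with a UMI of up to 1.21% by the limit of 3 counts, and 0.0559% of Tom- mesothelial cells. Before thinning the shares were 0.49%, 0.50%, 0 of 250 (up to 1.20%) and 0.159%. These few UMIs were concentrated: 16 Tom+ and 24 Tom- stromal cells held all of them, with up to 9 and 14 in a single cell, and 5 cells held 63.2% of them in the Tom+ and 60.8% in the Tom- library.

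The target genes were higher in mesothelial cells. Id1 was at 126 CPM (123 to 129) in Tom+ cells and at 151 CPM (148 to 154) in Tom- stromal cells, and at 882 CPM (857 to 907) and 947 CPM (936 to 957) in mesothelial cells, where it was 7.0-fold and 6.28-fold higher (log2 ratios of 2.81, 2.75 to 2.86, and 2.65, 2.62 to 2.69). Thinned, 92.3% and 95.1% of mesothelial cells held an Id1 UMI, against 37.2% and 42.5% of stromal cells, and before thinning 96.0%, 97.4%, 47.7% and 51.1%. Id3 was at 1227 CPM (1218 to 1237) in Tom+ cells and at 1723 CPM (1712 to 1733) in Tom- stromal cells, and at 2191 CPM (2152 to 2232) and 2396 CPM (2380 to 2413) in mesothelial cells. Its log2 ratios between the cell types, 0.84 and 0.48, stayed under the fold, and it was found in 94.5% of Tom+ and 98.2% of Tom- stromal cells and in 98.8% and 99.9% of mesothelial cells when thinned (96.4%, 98.2%, 100% and 99.9% before thinning). For Id1 and Id3 alike, the intervals of the 4 groups did not overlap, in the order Tom- mesothelial, Tom+ mesothelial, Tom- stromal and Tom+ stromal cells.

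In the comparison of cell types, 2 of the 7 genes were past the fold in the mesothelial direction (Bmp4 and Id1) and 1 in the stromal direction (Gdf10) in each library. Among all genes, 13.1% were past the fold higher and 10.1% lower in mesothelial cells of the Tom+ library, and 11.9% higher and 9.22% lower in the Tom- library. The median log2 ratio of the 7 genes was 0.56 in the Tom+ and 0.48 in the Tom- library, beside 0.11 and 0.14 over all genes. Bmp4 and Gdf10 remained on their sides without the shared barcodes, with log2 ratios in the Tom+ library of 3.16 and -5.88, and Id1 was then at 2.64. None of the other 4 genes that passed the filter was past the fold there.

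**Figure D2:**
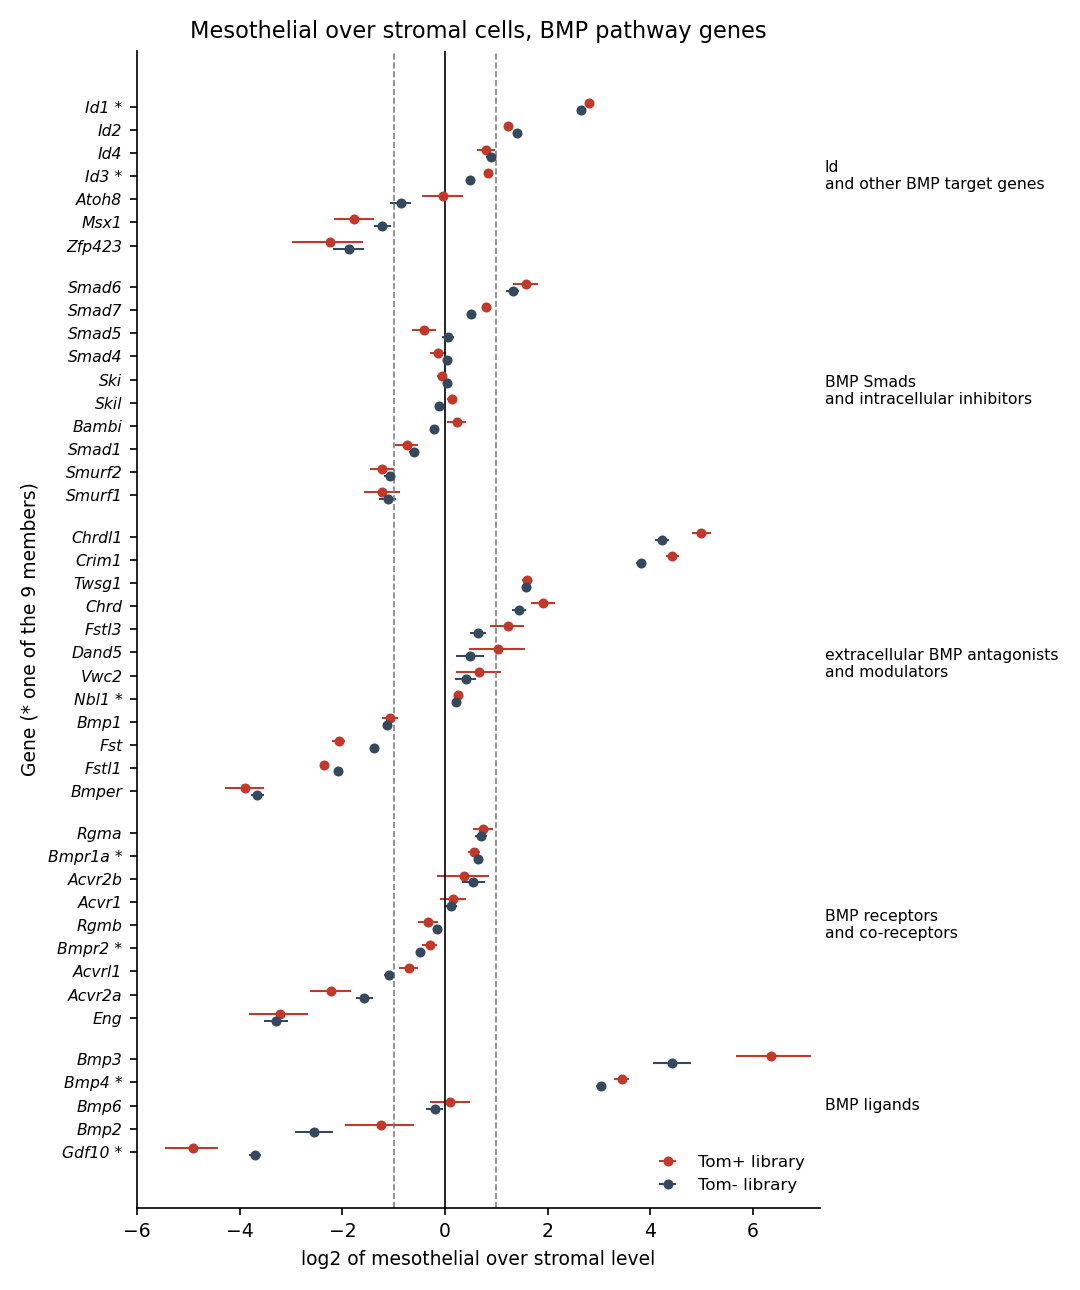
Log2 ratio of mesothelial over stromal cells in the Tom+ and the Tom- library. Shown are those of the 9 genes and the wider BMP genes that passed the filter on low values in both libraries. Bmp4 (3.44 and 3.03) and Id1 (2.81 and 2.65) lie to the mesothelial side and Gdf10 (-4.91 and -3.70) to the stromal side in both libraries.

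The wider BMP genes were read from 5 lists that include the 9. Of the ligands, Bmp3 was past the fold in the mesothelial direction in both libraries, with log2 ratios of 6.36 and 4.42 and levels of 30.6 and 24.7 CPM in mesothelial cells, and Bmp2, a close relative of Bmp4, in the stromal direction, at -1.24 and -2.55. The Tom+ ratios without the shared barcodes were 4.81 for Bmp3 and -2.23 for Bmp2. In all, 5 of 14 ligands passed the filter on low values, 2 of them past the fold in each direction in each library. Of the receptors and co-receptors, 9 of 10 passed the filter, and none was past the fold in the mesothelial direction. The type II receptor Acvr2a and the co-receptor endoglin (Eng, -3.21 and -3.29) were past it in the stromal direction in both libraries, and the type I receptor Acvrl1 in the Tom- library. Eng in the Tom+ library was at -4.79 without the shared barcodes. The all-gene shares past the fold given above, 13.1% and 10.1% in the Tom+ and 11.9% and 9.22% in the Tom- library, are the background for each of these lists.

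Extracellular antagonists and modulators of BMPs were past the fold in both directions. Of 21, 13 passed the filter in the Tom+ library, 6 past the fold in the mesothelial and 5 in the stromal direction, and in the Tom- library 12 passed, with 4 past the fold in each direction. The mesothelial side held Chrdl1 (4.99 and 4.23), Crim1 (4.43 and 3.82), Chrd (1.91 and 1.44) and Twsg1 (1.59 and 1.58) in both libraries. All 4 of these bind BMPs outside the cell or tether them at its surface. Chrdl1, chordin-like 1, reached 202 and 175 CPM in Tom+ and Tom- mesothelial cells against 6.34 and 9.33 CPM in stromal cells, and thinned it was found in 66.4% and 62.9% of mesothelial and in 3.30% and 4.59% of stromal cells. The stromal side held Bmper (-3.89 and -3.66), the follistatin-like gene Fstl1 (-2.36 and -2.09), Fst, which encodes the activin and BMP binder follistatin, and the chordin-cleaving protease gene Bmp1. In the Tom+ library Fstl3 (1.22) and Dand5 (1.03) were also past the fold on the mesothelial side and Kcp (-2.58) on the stromal side. Without the shared barcodes the Tom+ ratio of Dand5 was 0.24, no longer past the fold, that of Kcp -1.80 and that of Fst -2.90, from -2.07. Of the 11 Smads and intracellular inhibitors, 10 passed the filter, with the inhibitory Smad6 (1.58 and 1.32) on the mesothelial side and the ubiquitin ligases Smurf1 and Smurf2 on the stromal side. Of the 9 Id and other target genes, 7 passed, with Id2 (1.23 and 1.41) beside Id1 on the mesothelial side and Msx1 and Zfp423, a preadipocyte transcription factor, on the stromal side.

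The study sorted the cells to ask how p16-expressing progenitors differ from the rest. From a ligand-receptor analysis over cell types, the paper reported BMP among the pathways more active in p16-high than in p16-low progenitors. That is a different measure from the levels of single genes read here. Among stromal cells, Bmp4, Gdf10 and Id3 were lower in the Tom+ library. Bmp4, at 13.8 against 20.8 CPM, had a Tom+ over Tom- log2 ratio of -0.60 (-0.73 to -0.46), which placed it at percentile 3.17 among all genes. Gdf10, at 193 against 272 CPM, had -0.50 (-0.53 to -0.46), just short of the fold and at percentile 4.32, and Id3, at 1227 against 1723 CPM, had -0.49 (-0.50 to -0.47) at percentile 4.48. Id1 was at -0.26 (-0.31 to -0.21) and Nbl1 at -0.13. The receptors had small ratios in the other direction, 0.11 (0.051 to 0.17) for Bmpr1a and 0.11 (0.053 to 0.16) for Bmpr2, near the 0.071 at which the median gene stood. Below the filter, Bmp7 was at -0.47 (-0.74 to -0.20) and Grem1 at -0.88 (-1.47 to -0.30). The Grem1 interval does not cover the concentration of its UMIs in 16 Tom+ and 24 Tom- cells. Thinned, the shares of cells with Grem1 were 0.300% and 0.336%. In all, 1 of the 7 genes, Bmp4, was past the fold lower, where 4.26% of all genes were, and 0 were past it higher, where 6.39% were. Their median was -0.26.

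The call for Bmp4 and the sizes for the others moved with the cells included. Without the shared barcodes, which were on 404 Tom+ and 75 Tom- stromal cells, the ratios were -0.44 for Bmp4, -0.38 for Gdf10, -0.36 for Id3, -0.16 for Id1, 0.22 for Bmpr1a, 0.21 for Bmpr2 and 0.0046 for Nbl1, and none of the 7 genes was past the fold. The all-gene median was then 0.13. With only cells that held at least 3 UMIs of Pdgfra, Dcn and Lum and under 1% of UMIs from 7 immune and neural genes, which kept 3096 Tom+ and 4713 Tom- cells, Bmp4 was at -0.51, Gdf10 at -0.43 and Id3 at -0.41. A stricter rule, under 5 UMIs of those 7 genes in a cell, kept only 320 of 3263 Tom+ but 3943 of 4800 Tom- stromal cells, and there the ratios were -0.086 for Bmp4, -0.14 for Gdf10 and -0.12 for Id3. Genes that respond to tissue dissociation also stood apart between the libraries: 16 of 18 were below 0, 5 were past the fold lower, and their median was -0.23. The part of dissociation, and of the antibody RNA, in the lower Id3 and Id1 was not tested. Mesothelial RNA differed between the libraries as well. The 5 mesothelial rule genes summed to 6.63 CPM in Tom+ and 27.3 CPM in Tom- stromal cells, and Muc16 was at 0.254 against 1.21 CPM. The part of mesothelial RNA in the lower Bmp4, Id1 and Id3 was not tested.

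**Figure D3:**
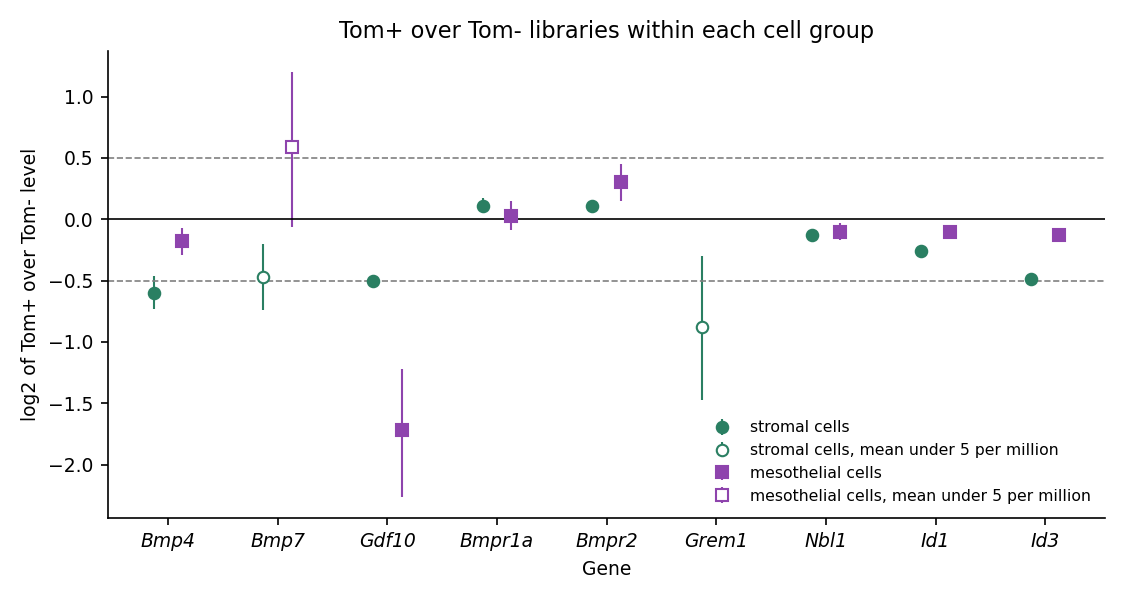
Log2 ratio of Tom+ over Tom- for the 9 genes in stromal and in mesothelial cells, with exact 95% intervals for counting error and 1 library per sort. In stromal cells Bmp4 (-0.60), Gdf10 (-0.50) and Id3 (-0.49) lie lowest of the 7 genes that passed the filter, and in mesothelial cells Gdf10 (-1.72) stands apart, on 34 UMIs in the Tom+ library.

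In mesothelial cells 6 of the 7 genes had ratios under the fold between the libraries. Bmp4 had a Tom+ over Tom- log2 ratio of -0.18 (-0.29 to -0.071), Bmpr1a 0.030, Nbl1 -0.10, Id1 -0.10 and Id3 -0.13, all below the all-gene median of 0.032. Bmpr2 was at 0.30 (0.15 to 0.45), at percentile 89.7. Gdf10 was at -1.72 (-2.26 to -1.22), at percentile 0.0799, and Lum, also a stromal RNA, was at -1.03 (-1.23 to -0.84) in the same cells. Gdf10 was the 1 gene of 7 past the fold lower, where 1.78% of all genes were, and 0 were past it higher, where 3.03% were, with a median of -0.10. Below the filter, Bmp7 was at 0.59 (-0.061 to 1.20), and Grem1, with 0 and 3 UMIs, gives no ratio. Of the 18 dissociation genes 13 were below 0 and none was past the fold. In these 250 Tom+ cells, the immune gene Lyz2 was at 275 CPM, against 10.8 CPM in Tom- mesothelial cells. With cells under 3 UMIs of Ptprc and Lyz2, Id3 was at -0.089. Without the shared barcodes, which 100 of the 250 Tom+ cells carried, Bmp4 was at -0.26, Bmpr2 at 0.45, Gdf10 at -2.58 and Id1 at -0.17, while Bmpr1a (-0.077), Nbl1 (0.024) and Id3 (0.029) changed sign.

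Within the stromal cells, Bmp7 was concentrated in the cells richest in interstitial progenitor markers. Stromal cells were divided into 5 groups by whether a cell's share of UMIs from each of 3 marker lists was in the top 25% over both libraries: interstitial progenitor (Dpp4, Pi16, Cd55, Sema3c and Anxa3; 673 Tom+ and 871 Tom- cells), preadipocyte (Pparg, Fabp4, Cd36, Lpl and Car3; 636 and 775), F3 regulatory cell (F3, Clec11a, Fmo2 and Igfbp3; 320 and 847), several lists (336 and 612) and none (1298 and 1695). The groups are ranges of a score rather than cell types, and within 10% of the cuts lay 135, 218 and 170 Tom+ cells and 201, 290 and 297 Tom- cells, in the order of the lists. Bmp7 was at 17.9 CPM in Tom+ cells and at 23.3 CPM in Tom- cells of the progenitor group and at no more than 2.83 CPM in any other group. That group held 92.6% of stromal Bmp7 UMIs in the Tom+ and 88.1% in the Tom- library, and without the shared barcodes 92.4% and 87.9%. At full depth, without thinning, a Bmp7 UMI was found in 15.6% of its Tom+ cells (12.9 to 18.6) and 20.8% of its Tom- cells (18.1 to 23.6). Among all other stromal cells these shares were 0.425% and 0.738%. The Tom+ preadipocyte group held 0 Bmp7 UMIs. Against its floor of 3 UMIs the progenitor level was 62.1-fold higher, and the interval of the preadipocyte over progenitor log2 ratio ended at -5.64. Bmp7 was not alone in this among ligands. Bmp6 (39.8 and 54.9 CPM), Bmp2 (23.1 and 32.0 CPM), Bmp3 (1.85 and 5.19 CPM) and Bmp8a (2.47 and 2.95 CPM) were also highest in the progenitor group. Bmp5 (1.34 and 0.627 CPM) and Gdf6 (0.925 and 0.627 CPM) were lowest in it.

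Bmp4 and Gdf10 were not concentrated in the progenitor group. Gdf10 was lowest in the progenitor group, at 95.4 CPM in Tom+ cells and at 108 CPM in Tom- cells, and stood at 245 and 380 CPM in the preadipocyte group and at 281 and 343 CPM in the F3 group. Bmp4 was also low in the progenitor group, at 8.32 and 15.3 CPM. It was at 20.8 and 18.1 CPM in the preadipocyte group and at 20.8 and 33.2 CPM in the F3 group. In the Tom- library, Bmp4 in the preadipocyte group did not differ from the progenitor group beyond counting error, with a log2 ratio of 0.24 (-0.075 to 0.55).

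Among receptors and targets, Bmpr2 and Id1 differed in the progenitor group. Bmpr2 was highest in the progenitor group, at 139 CPM in Tom+ cells and at 124 CPM in Tom- cells against 81.5 to 111 CPM elsewhere, while Bmpr1a ranged only from 73.6 to 104 CPM over all groups. Id1 was lowest in the progenitor group, at 70.5 and 90.0 CPM, and highest in the F3 group, at 209 and 187 CPM. Id3 ran from 1143 to 1495 CPM over the Tom+ groups and from 1537 to 1988 CPM over the Tom- groups, again highest in the F3 group. The F3 list itself summed to 1665 and 1741 CPM in Tom+ and Tom- mesothelial cells, against 353 and 512 CPM in stromal cells. For the progenitor list these sums were 1249 and 1192 CPM against 788 and 944 CPM. The part of mesothelial RNA in these stromal groups was not tested. Nbl1 was lowest in the preadipocyte group, at 278 and 262 CPM. Of the few Grem1 UMIs, the group with none of the lists held 21 of 38 in the Tom+ and 22 of 79 in the Tom- library, and the F3 group 9 and 37.

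**Figure D4:**
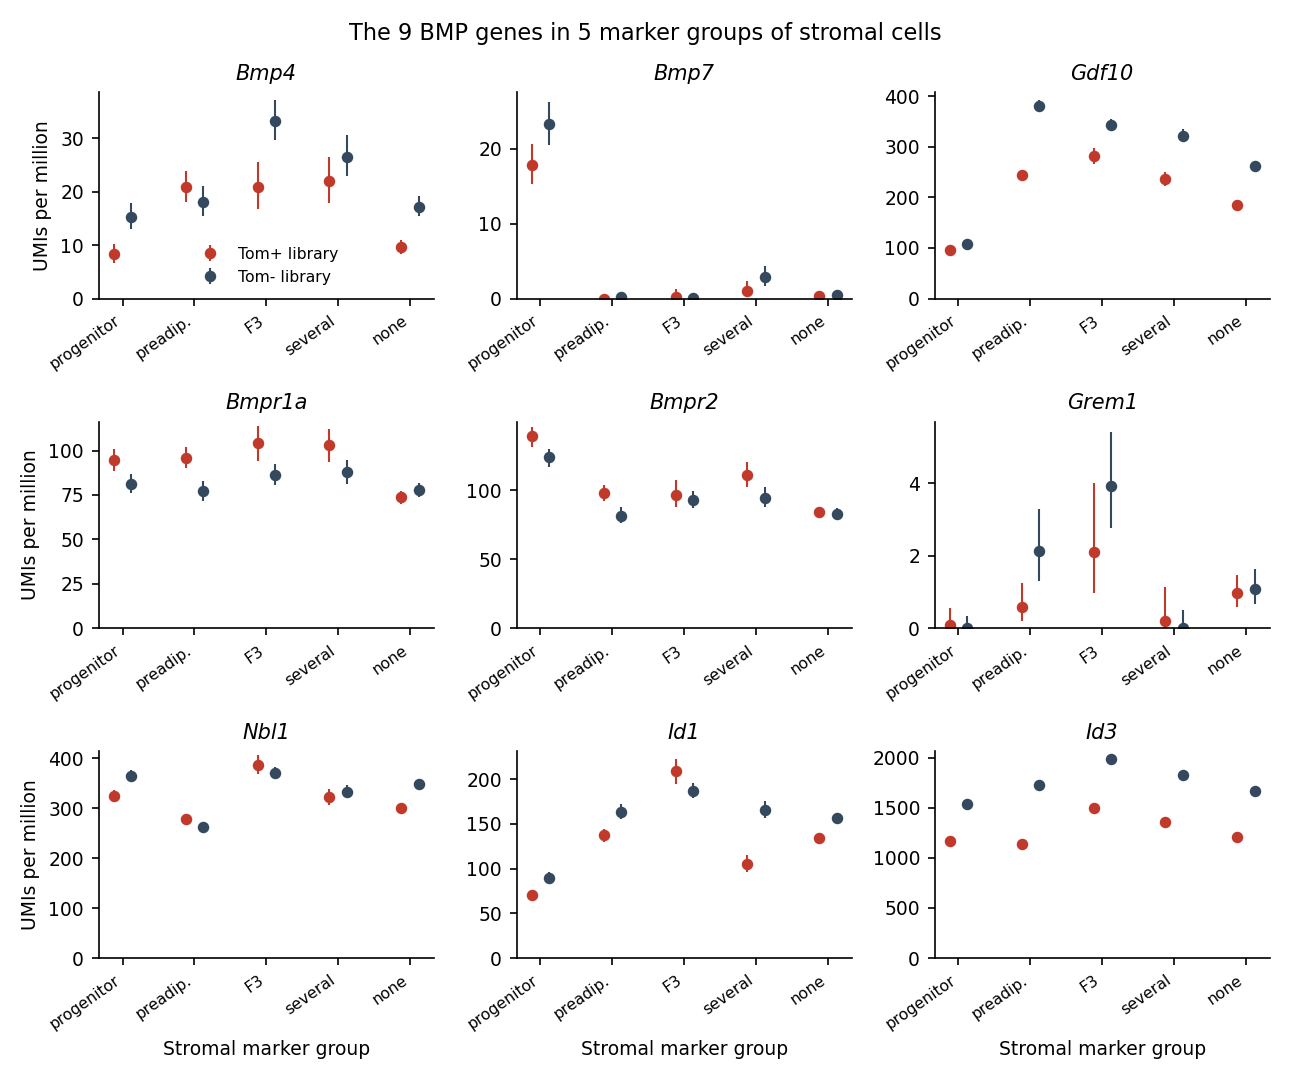
Level of the 9 genes in the 5 stromal groups of each library, in CPM on a linear axis, with exact Poisson 95% intervals. Bmp7 is highest in the progenitor group (17.9 and 23.3 CPM), where Gdf10 (95.4 and 108 CPM) and Id1 (70.5 and 90.0 CPM) are lowest.

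The Tom+ over Tom- ratios were then read within each of the 5 groups, so that the mix of groups enters less. Id3 was below 0 in 5 of 5 groups, from -0.59 in the preadipocyte to -0.39 in the progenitor group, and Gdf10 in 5 of 5, from -0.63 to -0.18, each with an interval below 0. Both stayed below 0 in 5 of 5 groups without the shared barcodes. Bmp4 was lower with an interval below 0 in 3 of 5 groups (progenitor -0.88, F3 -0.67 and none -0.84), and in the preadipocyte group its ratio was 0.20 (-0.092 to 0.50). Without the shared barcodes, Bmp4 had an interval below 0 in 3 groups and above 0 in 1. Id1 was lower in 4 groups but at 0.16 (0.041 to 0.28) in the F3 group. Without the shared barcodes Id1 was at 0.11 (-0.018 to 0.23) in the F3 group and at 0.019 (-0.058 to 0.097) in the group with none of the lists, and lower in the other 3. Bmpr1a had an interval above 0 in 4 groups, with 0.31 in the preadipocyte group, and in 5 without the shared barcodes. Bmpr2 was above 0 in 5 groups, with an interval above 0 in 3, and in 4 without the shared barcodes. The all-gene median was itself above 0 in the progenitor (0.11), preadipocyte (0.099), F3 (0.14) and several-list (0.11) groups. In the group with none of the lists it was -0.00022. Bmpr2 in the F3 group, at 0.054, lay below that group's median. With all barcodes, the receptor intervals lay above the group's median only in the preadipocyte group, at 0.18 to 0.45 for Bmpr1a and 0.13 to 0.40 for Bmpr2. In the other groups the intervals of both receptors covered the median. With the 5 groups weighted equally, none of the 7 genes was past the fold between the libraries. The group with none of the lists held most of the antibody RNA, with Igkc at 99896 CPM in Tom+ cells and at 29980 CPM in Tom- cells. Its Tom+ over Tom- log2 ratio was highest in the preadipocyte group, at 5.98 (10300 against 164 CPM), where Id3 and Gdf10 had their lowest ratios, and was 4.57 in the group with several lists, 2.14 in the progenitor group, 1.74 in the group with none and 0.41 in the F3 group. With under 1% of UMIs from the 7 immune and neural genes and at least 3 stromal UMIs, preadipocyte Id3 was at -0.56 and Gdf10 at -0.60. In the group with none of the lists, Id1 was then at -0.012 (-0.087 to 0.062). Bmpr1a there was at 0.11 (0.0063 to 0.21) and Nbl1 at -0.032 (-0.081 to 0.018). Beyond this filter, the part of antibody RNA in these ratios was not tested.

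Among the wider BMP genes, the pseudoreceptor gene Bambi had the lowest Tom+ over Tom- ratio of those past the fold in stromal cells, at -1.06, with 43.8 against 91.6 CPM, and its interval was below 0 in 5 of 5 groups. Bambi blocks signaling by type I receptors and is itself switched on by BMP and TGF-β signals. Fstl3 (-0.61) and Chrdl1 (-0.56) were also past the fold lower, and Kcp (0.64), Smad5 (0.58), Zfp423 (0.55) and Fstl1 (0.50) were past it higher. Bambi (-0.90 without the shared barcodes), Kcp and Smad5 were past the fold in 12 of 12 alternative settings, whereas Chrdl1 was past it in 5 of 12 and ran from -0.63 to 0.26. By list, 1 of 4 ligands that passed the filter was past the fold lower (Bmp4), and 0 of 9 receptors were past it in either direction. Of the antagonists and modulators, 2 of 12 were past it in each direction. Of the Smads and inhibitors, 1 of 10 was past it in each. Of the list of Id and other target genes, 1 of 7 was past it higher, the preadipocyte transcription factor gene Zfp423 and not an Id gene. Beside these counts, 6.39% of all genes were past the fold higher and 4.26% lower. In mesothelial cells only Bambi (-0.61) and Bmper (-0.53) joined Gdf10 past the fold. There Bambi was past it in 11 of 11 alternative settings. Bmper, on 62 UMIs in the Tom+ library, was past it in 7 of 11 and ran from -0.93 to -0.23.

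Cells that hold the reporter's RNA can be compared with those that do not inside a single library, where no difference between preparations enters. Thinned to 7500 UMIs, 596 Tom+ stromal cells held a tdTomato UMI and 2402 did not, and in the Tom- library 374 did and 3790 did not. With over without such a UMI, Id3 had a log2 ratio of -0.19 in the Tom+ and -0.014 in the Tom- library, beside all-gene medians of -0.18 and 0.020. Gdf10 was at -0.058 and -0.075, and Bmp4 at 0.23 and 0.15 with both intervals covering 0. Bambi was at -0.070 (-0.29 to 0.14) in the Tom+ and -0.70 (-0.94 to -0.48) in the Tom- library, and Nbl1 at -0.36 and 0.041. Bmpr1a was at -0.25 (-0.42 to -0.088) in Tom+ and 0.045 in Tom- cells, Bmpr2 at -0.29 (-0.45 to -0.14) and -0.13, and Id1 at -0.094 and -0.12. Bmp7 was at -0.35 (-1.29 to 0.49, 14 UMIs in cells with tdTomato) and 0.87 (0.18 to 1.51, 24 UMIs), the only one of the 9 genes past 0.5 in this split. Grem1 gave 4 and 19 UMIs in Tom+ cells with and without tdTomato and 0 and 37 in Tom- cells. All Tom+ cells were sorted as reporter positive, and how many of the Tom- cells held tdTomato RNA carried over from other cells was not tested, so small ratios in this split do not show that the genes are unrelated to the reporter.

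From cell to cell, Id1 was found about as often with Bmp4 as without it in stromal cells. Thinned, Id1 was found in 37.0% of Tom+ stromal cells with a Bmp4 UMI and in 37.2% of those without, and in 43.0% and 42.4% of Tom- stromal cells. In mesothelial cells the shares were 92.2% and 92.5% in the Tom+ and 96.0% and 93.7% in the Tom- library. The ligands Bmp4 and Gdf10 were also counted together. Gdf10 was found in 48.1% of Tom+ stromal cells with Bmp4 (42.1 to 54.3) and 55.5% of those without (53.6 to 57.4). In Tom- stromal cells it was found in 56.8% (52.3 to 61.2) and 61.1% (59.5 to 62.7), and the stromal intervals overlapped in each library. In mesothelial cells the shares with and without Bmp4 were 2.84% and 2.83% in the Tom+ library. In the Tom- library they were 5.10% (3.86 to 6.58) and 8.59% (6.64 to 10.9), without overlap. Id3 was higher in cells with Id1: Tom+ stromal cells with an Id1 UMI held a mean of 12 Id3 UMIs against 8.74 in those without, and Tom- stromal cells 14.6 against 12.5.

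Over the 12 groups of cells (5 stromal groups and the mesothelial cells of each library), the genes whose log2 levels followed each member most closely were named, with Pearson's r as a description only, since the groups of a library share its preparation and the mesothelial groups weigh heavily. For Bmp4 these were Pkdcc (0.978), Cldn10 (0.976) and Bsg (0.975), and for Id1 Gsta4 (0.996), Gas1 (0.990) and Emp2 (0.989). Gdf10 was followed by Gpx3 (0.994), the chemokine gene Cxcl12 (0.992) and the growth factor gene Fgf7 (0.991), and Id3 by Sqstm1 (0.979), Gpc4 (0.971) and Jam3 (0.970). The receptors had Wwc2 (0.970), Dstn (0.964) and Actn4 (0.960) for Bmpr1a and Gab2 (0.973), Ext1 (0.960) and Sirpa (0.957) for Bmpr2. Nbl1 had Rpl39 (0.903), Rps16 (0.887) and Slc38a2 (0.884). Bmp7 and Grem1 averaged less over the 12 groups than the 20 CPM set for this comparison.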

How the data were processed

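Gonadal adipose cells that were CD31- CD45- were sorted by tdTomato, and 1 library each of Tom+ and Tom- cells was made with a droplet kit that reads the 3′ end. Per the study's methods and processing notes, the authors aligned reads to mm10 and counted UMIs with Cell Ranger 3.0.2, and the deposited values are whole-number UMI counts per gene and barcode, without normalization, over 5566 Tom+ and 11838 Tom- barcodes. The strand setting of counting is not given in the sources used here.

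Cells with 1001 to 6999 genes and under 8% mitochondrial UMIs were kept, the thresholds of the study. Cell types were assigned by UMI sums of 5 mesothelial genes. No doublet caller was run. Leaving out the deepest 5% of cells was an alternative. UMIs were summed per library and cell type and scaled to CPM, with exact 95% intervals (scipy 1.17.1, numpy 2.4.6, pandas 2.3.3, Python 3.11.15). Shares of cells with a UMI used cells thinned to 7500 UMIs with a fixed seed, except those given as before thinning or at full depth. With 1 library per group no count model was fitted. The ratios and their intervals were tested on simulated Poisson totals per gene, which hold no clustering of UMIs in cells. The members and gene lists were chosen with earlier results of these data known. The rule named all 9 members in the 4 comparisons, and wider BMP genes where they passed the fold. A further gene was left out of the wider lists and is not reported here. Alternatives covered scaling, filters, cell rules, per-cell averaging and the shared barcodes.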

Additional observations from a re-analysis of the deposited data

Results flagged for a closer look

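For 3 genes of the wider BMP lists, the Tom+ over Tom- log2 ratios lay on opposite sides of 0 in stromal and mesothelial cells with both counting intervals excluding 0. The difference between the ratios has no test, with 1 library per sort. The share of all genes with such a pattern is not given, so these 3 are not set apart from other genes. In stromal cells Chrdl1 was at 3.14% and 5.32% of its mesothelial level in the Tom+ and Tom- libraries, and Crim1 at 4.64% and 7.09%. The part of RNA carried over between the cell types in these ratios was not tested. Chrdl1 was at -0.56 in stromal and 0.21 in mesothelial cells, a difference (mesothelial minus stromal) of 0.76, and its stromal ratio ran from -0.63 to 0.26 over 12 alternative settings. Crim1, which tethers BMPs at the cell surface, was at -0.44 and 0.17, a difference of 0.61. Fst was at 0.35 and -0.35, a difference of -0.69.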

How the results depend on the processing

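No paired analysis was possible because each sort gave 1 library, and no replicate could be left out. In stromal cells, the number of members past the fold between libraries, 1 as reported, was 3 when libraries were scaled by the median of ratios, 3 with mitochondrial UMIs under 5%, 2 with stricter cell rules, 2 without the filter on low values, and 0 without the shared barcodes, with the 5 stromal groups weighted equally, or with under 5 UMIs of 7 immune and neural genes per cell. The last kept only 320 of 3263 Tom+ and 3943 of 4800 Tom- cells. In mesothelial cells 1 became 2 without the filter on low values. Ratios that changed sign were small ones. In stromal cells Nbl1 was at 0.21 with the 7-gene rule and 0.0046 without the shared barcodes. In mesothelial cells Bmpr1a was at -0.0023 with the median-of-ratios scaling, -0.011 with per-cell averaging, -0.024 without the deepest 5% of cells and -0.077 without the shared barcodes, where Nbl1 was at 0.024 and Id3 at 0.029. Nbl1 between cell types was at -0.16 in the Tom+ library with the 7-gene rule. The causes were not tested. The sign held in 106 of 108 and 82 of 88 stromal and mesothelial ratios between libraries, and in 87 of 88 and 88 of 88 between cell types. Across alternatives, stromal Bmp4 ran from -0.67 to -0.086, Gdf10 from -0.57 to -0.14 and Id3 from -0.56 to -0.12. The filter on immune and neural genes by share of UMIs was chosen after seeing the data.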
